A study of Mus musculus with 6 samples.

Results

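Integrins, laminins and collagens are the main receptors and building blocks by which a cell holds on to its extracellular matrix. They were examined here in MIN6, a mouse pancreatic β-cell line derived from an insulinoma. Of the 16640 genes with counts, 75 were taken by symbol: 11 integrin α chains, 8 integrin β chains, 10 laminin chains, 41 collagen chains, *Fn1* (fibronectin) and *Fndc1*, together with 3 genes whose symbols begin like those of integrins but which code for proteins that bind integrin tails or were named after them (*Itgb1bp1*, *Itgb1bp2* and *Itgb3bp*). The 34 genes described one by one were selected on their own level, a mean of at least 1 CPM (the counts scaled to library size) over all 6 libraries, so that these means are a description and not a finding.

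The libraries came from stable lines of MIN6 cells made with 2 lentiviruses. *Thada*-activated cells carried dCas9-VP64, selected with puromycin, and sgRNA-MS2-P65-HSF1, selected with G418, whose guide brings the activators to the promoter of endogenous *Thada* without cutting it. Control cells carried dCas9 and a non-targeting guide, both also delivered by lentivirus. Each condition had 3 RNA-seq libraries, numbered 1 to 3 in the labels. The authors' reporting summary says that work in cell culture was repeated independently at least 3 times, but nothing in the labels says that the numbered libraries stand for separate cultures, so that p-values measure only the spread between these libraries, which may be technical.

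Integrins are pairs of an α and a β chain that span the plasma membrane and tie laminin, collagen or fibronectin outside the cell to actin inside it. Laminins are trimers of an α, a β and a γ chain, and with type IV collagen they form the sheet of the basement membrane. In islets, much of the basement membrane that β cells touch is laid down by the endothelial cells of the capillaries, and β1 integrins that bind laminin are known to act in β-cell survival and insulin secretion. Other collagens form fibrils, decorate fibrils or build finer networks, and are best known from fibroblasts, cartilage and skin.

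The depth was even, with 17272834, 17166511 and 17689611 counts in the control libraries and 17727004, 17385036 and 17224631 in the activated ones. Here and below, values per library are listed in the order of replicates 1, 2 and 3. *Thada*, the activated gene, stood at 27.7, 29.0 and 17.0 CPM in control and at 57.4, 56.2 and 50.2 CPM in activated libraries, so the labels and the target went together. Replicate 3 was unlike the other 4 libraries in control and activated cells alike: the first principal component of all tested genes carried 77% of the variance and placed control 3 at 55.0 and activated 3 at 49.4, against -27.0 to -25.4 for the others. Replicate 3 was therefore also compared with the others in its own right.

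Together the 75 genes took between 0.0841% and 0.128% of the counts of a library. Their summed level was 1275, 1229.5 and 841 CPM in control libraries and 1197, 1242 and 923 CPM in activated libraries, so that it was lowest in replicate 3 of each condition. Most of this gap came from collagens, whose sum was 608, 554 and 227 CPM in control and 503, 550.2 and 286 CPM in activated libraries. The summed integrin α chains went the other way, at 113, 115 and 147 CPM in control and 115, 117 and 164 CPM in activated libraries. The integrin β chains summed to 365, 398 and 317 CPM and to 392, 384 and 314 CPM, and the laminins to 99.6, 92.4 and 85.4 CPM and to 97.1, 98.6 and 87.0 CPM. In bulk RNA such as this, fewer cells of a kind and less RNA per cell cannot be told apart.

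**Figure D1:**
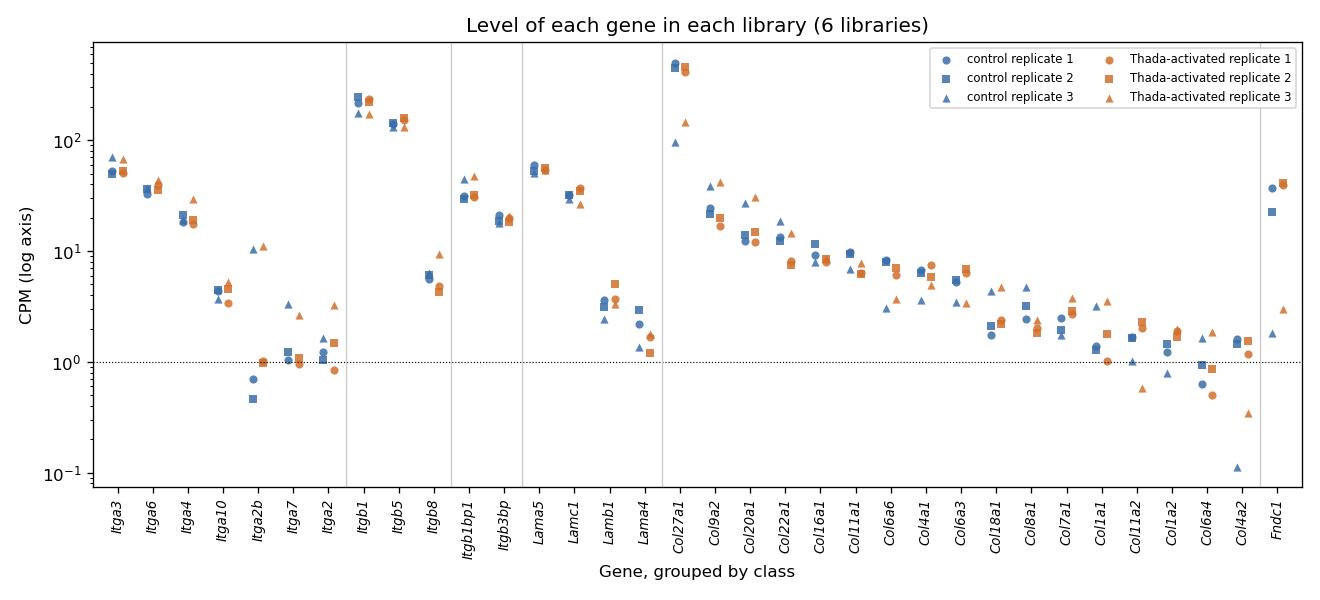
Level of the 34 genes with a mean of at least 1 CPM in each of the 6 libraries, on a log axis in CPM, grouped into integrin α, integrin β, integrin-binding, laminin, collagen and fibronectin-type genes. Colour marks the condition and symbol shape the replicate number, and the dotted line is at 1 CPM. For *Fndc1* and *Col27a1* the replicate 3 triangles lie far below the other symbols, and for *Itga2b* far above them.

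Among integrin β chains, *Itgb1*, the partner of most α chains, had 219, 247 and 177 CPM in control and 234, 221 and 171 CPM in activated libraries. *Itgb5*, which pairs with the αv chain to bind vitronectin, had 140.3, 144 and 133 CPM and 153, 159 and 132 CPM. For both genes replicate 3 was the lowest library in each condition. *Itgb8*, an αv partner that binds latent TGF-β, was far lower, at 5.56, 6.06 and 6.39 CPM and at 4.79, 4.31 and 9.41 CPM. The other 5 measured β chains were below 1 CPM, *Itgb4*, which pairs with the α6 chain in hemidesmosomes, at a mean of 0.153 CPM and *Itgb7* at 0.278 CPM.

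Of the α chains taken by symbol, those that join β1 to bind laminin led. *Itga3* had 53.1, 49.5 and 70.8 CPM in control and 50.9, 53.3 and 67.4 CPM in activated libraries. *Itga6* had 32.8, 36.2 and 36.9 CPM and 39.6, 35.4 and 43.8 CPM. Another laminin-binding chain, *Itga7*, known best from muscle, was counted at only 1.04, 1.22 and 3.34 CPM and at 0.959, 1.09 and 2.67 CPM. *Itga4*, a receptor chain for fibronectin and VCAM-1, had 18.3, 21.0 and 19.2 CPM and 17.6, 19.2 and 29.2 CPM. The collagen-binding chains were lower: *Itga10* had 4.40, 4.49 and 3.73 CPM and 3.38, 4.54 and 5.23 CPM, and *Itga2* had 1.22, 1.05 and 1.64 CPM and 0.846, 1.496 and 3.25 CPM. *Itga1*, also a collagen-binding chain, lay just outside the limit at a mean of 0.9005 CPM. *Itga2b*, the α chain of the platelet fibrinogen receptor, was the most uneven, at 0.695, 0.466 and 10.4 CPM in control and at 1.02, 0.978 and 11.1 CPM in activated libraries, and it reached 1 CPM on average through replicate 3.

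Among laminins, 1 or more chains of each kind were above the limit. *Lama5*, the α chain of the laminins most common in adult basement membranes, had 60.2, 53.2 and 51.0 CPM in control and 53.4, 56.7 and 53.9 CPM in activated libraries. *Lamc1*, the γ chain of most laminins, had 32.2, 32.1 and 29.6 CPM and 37.3, 34.9 and 26.6 CPM. *Lamb1*, a β chain, had 3.59, 3.15 and 2.43 CPM and 3.67, 5.06 and 3.31 CPM. *Lama4*, an α chain typical of vessel and muscle basement membranes, had 2.20, 2.91 and 1.36 CPM and 1.69, 1.21 and 1.80 CPM. The other 6 measured laminin chains were below 1 CPM, with *Lamb3* at 0.402 CPM and *Lamb2* at 0.345 CPM.

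Among collagens, the fibril-forming chain *Col27a1* (NCBI gene 373864, chromosome 4 from 63214009 to 63334991 of GRCm38) held more counts than the other 40 collagen genes together in replicates 1 and 2, at 502 and 447 CPM in control and 414 and 455 CPM in activated libraries. In replicate 3 it stood at 95.8 CPM in control and 145 CPM in activated libraries. The other fibril-forming chains were low: *Col11a1* had 9.90, 9.50 and 6.95 CPM and 6.37, 6.15 and 7.78 CPM, *Col11a2* had 1.68, 1.63 and 1.02 CPM and 2.03, 2.30 and 0.581 CPM. Of type I collagen, the major protein of tendon and bone, *Col1a1* had 1.39, 1.28 and 3.17 CPM and 1.02, 1.78 and 3.54 CPM, and *Col1a2* had 1.22, 1.46 and 0.791 CPM and 1.92, 1.67 and 1.97 CPM. *Col3a1*, its usual companion in soft connective tissue, had a mean of 0.106 CPM.

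A second tier was made of collagens that sit on the surface of other fibrils or interrupt their triple helix. *Col9a2*, a chain of the collagen that coats cartilage fibrils, had 24.3, 21.6 and 38.6 CPM in control and 16.7, 20.1 and 42.3 CPM in activated libraries. *Col20a1* had 12.2, 14.0 and 27.4 CPM and 12.1, 14.7 and 30.7 CPM. In both genes replicate 3 was the highest library of each condition. *Col22a1*, known from the junction of muscle and tendon, had 13.4, 12.3 and 18.7 CPM and 8.12, 7.42 and 14.7 CPM, and *Col16a1* had 9.21, 11.6 and 7.97 CPM and 7.90, 8.51 and 8.48 CPM.

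The chains of type IV collagen, the network of the basement membrane, were represented by *Col4a1* at 6.77, 6.29 and 3.62 CPM in control and 7.50, 5.87 and 4.93 CPM in activated libraries. Its partner *Col4a2* was much lower, at 1.62, 1.46 and 0.113 CPM and at 1.18, 1.55 and 0.348 CPM, the lowest mean CPM among the 34 genes. *Col18a1*, a basement membrane proteoglycan and the source of endostatin, had 1.74, 2.10 and 4.35 CPM and 2.37, 2.19 and 4.76 CPM. Of type VI collagen, which forms beaded filaments near basement membranes, *Col6a6* had 8.28, 8.04 and 3.05 CPM and 6.09, 7.02 and 3.66 CPM, *Col6a3* had 5.21, 5.53 and 3.50 CPM and 6.37, 6.84 and 3.37 CPM, and *Col6a4* had 0.637, 0.932 and 1.64 CPM and 0.508, 0.863 and 1.86 CPM. Their common partner *Col6a1* had a mean of 0.105 CPM. *Col8a1*, of the hexagonal network beneath the endothelium of the cornea, had 2.43, 3.20 and 4.69 CPM and 2.03, 1.84 and 2.38 CPM, and *Col7a1*, the anchoring fibril of skin, had 2.49, 1.92 and 1.75 CPM and 2.71, 2.88 and 3.77 CPM.

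Fibronectin was nearly absent. *Fn1* was at or under 3 counts in every library, the level taken as the floor (0.169 to 0.175 CPM), with a mean of 0.0285 CPM. *Fndc1* (NCBI gene 68655, chromosome 17 from 7738569 to 7827340), whose product carries fibronectin type III repeats but is not a fibronectin, had 37.4, 22.5 and 1.81 CPM in control and 39.2, 40.7 and 3.02 CPM in activated libraries. Both replicate 3 libraries were far below the other 4, which did not come close to them. Of the integrin-binding genes, *Itgb1bp1*, which binds the tail of β1, had 31.2, 29.3 and 45.0 CPM and 30.9, 32.3 and 47.7 CPM, and *Itgb3bp*, a centromere protein despite its symbol, had 21.4, 18.8 and 17.9 CPM and 19.7, 18.2 and 20.8 CPM.

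Levels of different genes can be compared only per length of transcript, for which the deposited FPKM values were used (fragments per kilobase of transcript, scaled to library size, mean ± SD over 6 libraries of both conditions). On this scale *Itgb1* (52.4 ± 7.70 FPKM), *Col27a1* (48.8 ± 25.0 FPKM), *Itgb5* (45.9 ± 3.45 FPKM) and *Itgb1bp1* (34.9 ± 7.90 FPKM) had the highest means, but their order differed between replicates. *Col27a1* was the highest in replicates 1 and 2 of both conditions, at 71.4 and 63.7 FPKM in control and 59.5 and 64.1 FPKM in activated libraries, and the lowest of these 4 genes in replicate 3, at 13.8 and 20.2 FPKM. *Itgb1bp1* was the lowest of them in replicates 1 and 2. In control replicate 3 it was level with *Itgb1*, at 43.98 against 43.94 FPKM, and in activated replicate 3 it was the highest, at 45.9 FPKM. *Itgb3bp* (12.6 ± 1.21 FPKM), *Itga3* (12.3 ± 1.95 FPKM) and *Col9a2* (10.5 ± 4.04 FPKM) had means close to each other. *Itga6* had 6.51 ± 0.675 FPKM, *Lamc1* had 4.30 ± 0.512 FPKM and *Fndc1* had 4.13 ± 3.08 FPKM. The type IV chains lay at 0.940 ± 0.212 FPKM for *Col4a1* and 0.168 ± 0.103 FPKM for *Col4a2*.

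The remaining 41 genes had means between 0.00940 and 0.9005 CPM, and 23 of the 75 genes were at or under 3 counts in every library. The genes just inside the limit of 1 CPM were *Col6a4* at 1.07 CPM and *Col4a2* at 1.05 CPM, and those just outside were *Itga1* at 0.9005 CPM, *Col28a1* at 0.881 CPM and *Col5a1* at 0.737 CPM. A filter on low counts passed 37 of the 75 genes, all 34 named genes and these 3, so the tests say nothing about the other 38.

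Between conditions, no gene of the 75 met the call rule, a fold change beyond 1.5 at an adjusted p below 0.05. Without a term for the replicate number, edgeR called 0 of 12516 tested genes (0%), 101 genes had an unadjusted p under 0.05 and the 34 named genes included 0 of these. With the replicate number as a block it called 19 genes (0.152%), again none of the 75, and 1302 genes (10.4%) had an unadjusted p under 0.05, among them 6 of the 34 named genes, 5 of them collagens. DESeq2 also called none of the 75, with or without the block. Over the 34 named genes the median log2 fold change of activated over control was 0.04 without and with the block, and over all tested genes it rounded to 0.00. The median absolute log2 fold change was 0.14 in the named genes and 0.08 in all tested genes. For 3 of the 34 genes (8.82%) the conditions did not overlap after normalization, against 5.4% of all tested genes, 2 being higher and 1 lower in activated libraries.

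**Figure D2:**
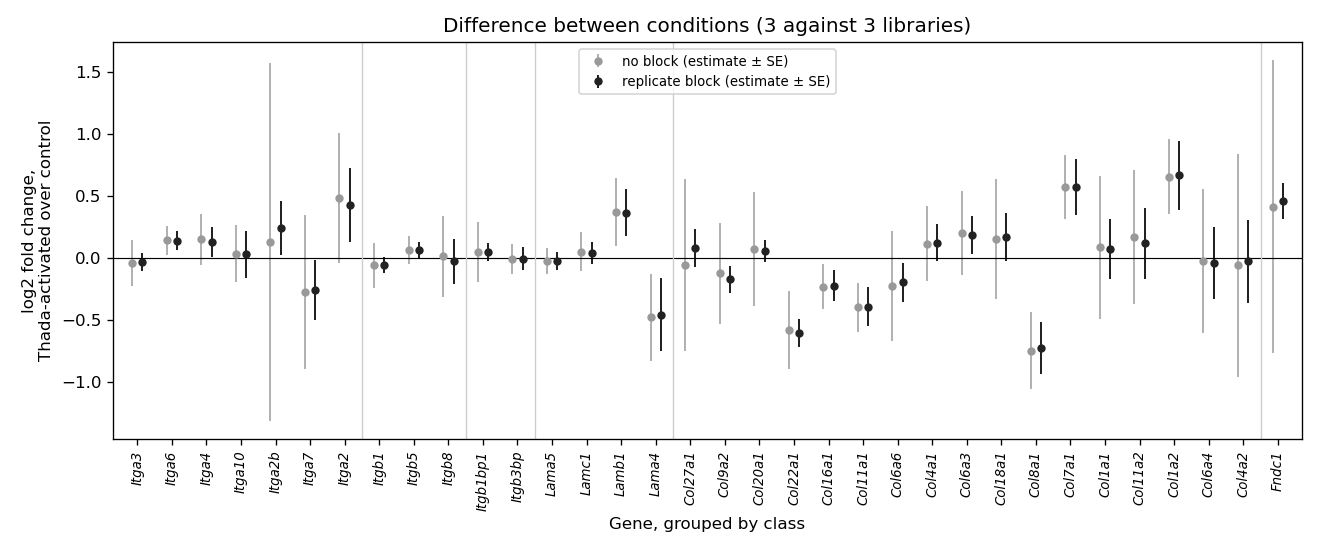
Log2 fold changes between conditions (activated over control) of the 34 genes, with the standard error as bars, estimated by edgeR from 3 libraries of each condition without a block (grey) and with the replicate number as a block (black). Standard errors were smaller with the block, most visibly for *Itga2b* and *Fndc1*. The estimates with the block ran from -0.73 (*Col8a1*) to 0.67 (*Col1a2*).

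*Col22a1* (NCBI gene 69700, chromosome 15 from 71795795 to 72150979) had a mean of 14.8 ± 3.43 CPM in control and 10.1 ± 4.01 CPM in activated cells (SD, n = 3). It was lower in the activated library of all 3 pairs of the same number, but activated replicate 3 (14.7 CPM) exceeded control replicates 1 and 2 (exact permutation test, two-sided, p = 0.3). The log2 fold change was -0.58 (SE 0.32, adjusted p = 1) without the block and -0.61 (SE 0.11, adjusted p = 0.0571) with it. Leaving out 1 library without the block moved it between -0.37 (without control replicate 3) and -0.95 (without activated replicate 3), and it was not called. It was called when both replicate 3 libraries were left out (-0.73, SE 0.12, adjusted p = 4.34e-05), where edgeR called 66 genes (0.527%), and with a term for replicate 3 in place of the block (-0.60, SE 0.11, adjusted p = 0.0190), where it called 42 genes (0.336%). *Col11a1* behaved alike only in part. Its means were 8.78 ± 1.597 CPM in control and 6.77 ± 0.882 CPM in activated cells (SD, n = 3; exact permutation test, two-sided, p = 0.2), and it was lower in the activated library of pairs 1 and 2 and higher in that of pair 3. Its log2 fold change was -0.40 (SE 0.20, adjusted p = 1) without and -0.39 (SE 0.16, adjusted p = 0.410) with the block, and -0.64 (SE 0.14, adjusted p = 0.00199) without both replicate 3 libraries, where it was called. With the block as well as without both replicate 3 libraries, edgeR called 70 genes (0.559%), *Col22a1* and *Col11a1* among them.

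*Col8a1* and the next 2 collagens were those whose conditions did not overlap. *Col8a1* had 3.44 ± 1.15 CPM in control and 2.08 ± 0.274 CPM in activated cells (SD, n = 3; two-sided p = 0.1 in an exact permutation test, which cannot go lower with 3 against 3 libraries). It had 83 counts in control replicate 3 and 32 to 55 counts in the others, and its log2 fold change was -0.75 (SE 0.31, adjusted p = 1) without and -0.73 (SE 0.21, adjusted p = 0.265) with the block. Without control replicate 3 it was -0.45. *Col7a1* had 2.05 ± 0.386 CPM in control and 3.12 ± 0.573 CPM in activated cells (SD, n = 3; exact permutation test, two-sided, p = 0.1), with a log2 fold change of 0.58 (SE 0.26, adjusted p = 1) without and 0.57 (SE 0.23, adjusted p = 0.398) with the block. *Col1a2* had 1.15 ± 0.337 CPM in control and 1.85 ± 0.163 CPM in activated cells (SD, n = 3; exact permutation test, two-sided, p = 0.1), with a log2 fold change of 0.66 (SE 0.30, adjusted p = 1) without and 0.67 (SE 0.28, adjusted p = 0.431) with the block. These 3 genes rested on 14 to 83 counts per library, and none of their differences passed the adjusted threshold.

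*Fndc1* showed how far replicate 3 set the spread. Its means were 20.6 ± 17.9 CPM in control and 27.6 ± 21.3 CPM in activated cells (SD, n = 3; exact permutation test, two-sided, p = 0.5), and it was higher in the activated library of all 3 pairs, by 0.05, 0.85 and 0.69 on the log2 scale. The log2 fold change was 0.41 (SE 1.18, adjusted p = 1) without and 0.46 (SE 0.14, adjusted p = 0.295) with the block. Leaving out control replicate 3 turned its sign, to -0.13 (SE 0.97) without the block, and leaving out any other library gave 0.02 (without activated replicate 2) to 1.18 (without control replicate 1). With the block and both replicate 1 libraries left out it was called (0.81, SE 0.16, adjusted p = 0.00639), where edgeR called 42 genes (0.336%), whereas it was not when both replicate 2 libraries (11 genes, 0.0879%, none of the 75) or both replicate 3 libraries were left out.

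The other 28 named genes had log2 fold changes between -0.48 and 0.48 without the block, and between -0.46 (*Lama4*) and 0.43 (*Itga2*) with it, and their adjusted p was at least 0.547. No integrin or laminin chain had conditions that did not overlap. The pairs did not go one way: 13, 19 and 25 of the 34 genes were higher in the activated library of pairs 1, 2 and 3. In all 3 pairs 9 genes went in the same direction, 6 of them higher and 3 lower in activated cells. No share of all tested genes is given for these counts, and the numbers do not separate replicate 1 from 2. The counts therefore only describe the 34 genes.

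Replicate 3 differed from replicates 1 and 2 far more than the conditions did. These 2 libraries were singled out because they had stood apart in earlier results, and 2 against 4 libraries cannot give an exact permutation p below 0.0667, so the following calls describe these libraries and are read against all genes. With the condition as a term, edgeR called 17 of the 34 named genes (50%), while it called 3893 of the 12516 tested genes (31.1%). Called higher in replicate 3 were 10 named genes (29.4%), against 15.7% of all tested genes, and called lower were 7 (20.6%), against 15.4% of all. Both shares are raised by the selection, since *Itga2b* and *Col6a4* among the 10 had means under 1 CPM in replicates 1 and 2, and *Col4a2* and *Col11a2* among the 7 had means under 1 CPM in replicate 3. The median absolute log2 difference was 0.59 in the named genes and 0.38 in all tested genes. On 2 sides of a line without overlap lay the replicate 3 and the other libraries for 23 of the 34 genes (67.6%), against 71.8% of all tested genes. Limma on log2(FPKM + 1), a scale that shrinks the differences of low genes, called 5 of the 75, and 16 with a pseudocount of 0.1. No share of all tested genes is given for limma.

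**Figure D3:**
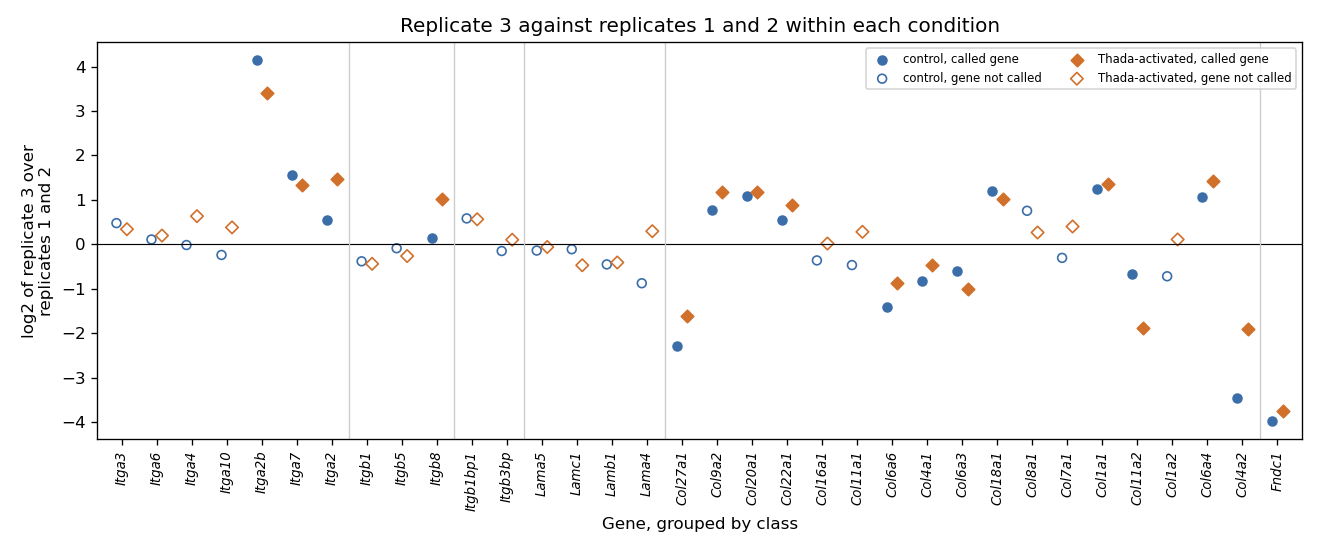
Log2 difference of replicate 3 over the mean of replicates 1 and 2 for the 34 genes, taken within control libraries (blue circles) and within *Thada*-activated libraries (orange diamonds), with 3 libraries in each. Filled symbols mark the 17 genes called over both conditions. All filled pairs lie on the same side of 0, from -3.97 and -3.74 for *Fndc1* to 4.14 and 3.41 for *Itga2b*.

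Among the integrin chains taken by symbol, those called were all higher in replicate 3. *Itga2b* (NCBI gene 16399, chromosome 11 from 102453297 to 102469883) rested on 184 and 191 counts in control and activated replicate 3 and on 8 to 18 counts in the other libraries. Its log2 difference was 3.75 (SE 0.20, adjusted p = 1.3e-09), 4.14 in control libraries alone and 3.41 in activated libraries alone. It had passed the limit of 1 CPM only through replicate 3, so its selection favoured this call. *Itga7* was higher by 1.46 (SE 0.23, adjusted p = 4.57e-05), with 1.55 in control and 1.33 in activated libraries. For *Itga2* the difference of 1.05 (SE 0.28, adjusted p = 0.00427) was carried mainly by activated replicate 3 (1.48 within activated and 0.54 within control libraries) and the call was lost without that library (0.54, adjusted p = 0.216). *Itgb8* likewise had 0.60 (SE 0.17, adjusted p = 0.00747), with 1.02 within activated and 0.15 within control libraries. Its call was lost without activated replicate 1, 2 or 3 (0.55, 0.50 and 0.15). Whether these differences were unequal between conditions was not tested. The other named chains were not called: *Itga3* had 0.41 and *Itga4* 0.33, *Itgb1* -0.41 and *Itgb5* -0.17, all with an adjusted p under 0.05 and a fold under 1.5. The value of *Itga4* was -0.01 within control and 0.64 within activated libraries. *Itga6* had 0.15 (adjusted p = 0.0779) and *Itga10* 0.08 (adjusted p = 0.719).

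No laminin chain was called. *Lamc1* had a log2 difference of -0.29 (adjusted p = 0.00917), *Lamb1* of -0.44 (adjusted p = 0.0603), *Lama4* of -0.33 (adjusted p = 0.340) and *Lama5* of -0.10 (adjusted p = 0.229). All 4 estimates were thus below 0, but for *Lama4* the values within control (-0.87) and activated (0.30) libraries had opposite signs.

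Collagens split, with 6 of the 17 named genes called higher and 6 called lower in replicate 3 (15.7% and 15.4% of all tested genes). The selection raised both counts, through *Col6a4* among those higher and *Col4a2* and *Col11a2* among those lower. *Col27a1* was lower by a log2 difference of -1.93 (SE 0.18, adjusted p = 0.000266), -2.29 in control and -1.61 in activated libraries. The type IV chains were also called lower. *Col4a2*, which had passed the limit of 1 CPM only through replicates 1 and 2, so that its selection favoured this call, had -2.63 (SE 0.43, adjusted p = 8.37e-05), from 2 counts in control and 6 counts in activated replicate 3 and 21 to 28 counts in the others. In control the ratio of replicate 3 to replicates 1 and 2 was 0.0735, with a 95% interval of 0.00867 to 0.279 (exact Clopper-Pearson, counting error only), and without control or without activated replicate 3 the log2 difference was -1.98 or -3.67. *Col4a1* had only -0.64 (SE 0.16, adjusted p = 0.00279), and its call was lost without control replicate 3 (-0.47) or activated replicate 1 (-0.58). *Col18a1*, also of the basement membrane, went the other way at 1.11 (SE 0.18, adjusted p = 7.55e-05).

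Of type VI collagen, *Col6a6* was lower by -1.13 (SE 0.16, adjusted p = 2.59e-05) and *Col6a3* by -0.80 (SE 0.16, adjusted p = 0.000469), whereas *Col6a4*, which had passed the limit of 1 CPM only through replicate 3, was higher by 1.24 (SE 0.30, adjusted p = 0.00191). The 3 genes thus did not move as a unit. Among the collagens of fibril surfaces, *Col20a1* was higher by 1.12 (SE 0.09, adjusted p = 1.05e-07), *Col9a2* by 0.97 (SE 0.10, adjusted p = 1.74e-06) and *Col22a1* by 0.71 (SE 0.11, adjusted p = 4.22e-05), the last falling under the fold limit without activated replicate 3 (0.55). *Col1a1* was higher by 1.28 (SE 0.23, adjusted p = 0.000208), while its partner *Col1a2* had -0.21 (adjusted p = 0.503). *Col11a2*, which likewise had passed the limit only through replicates 1 and 2, was lower by -1.25 (SE 0.31, adjusted p = 0.00264). It rested on 10 counts in activated replicate 3 and had -0.68 (adjusted p = 0.123) without that library and -1.91 without control replicate 3.

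*Fndc1* had the lowest value of all 34 genes. It had 32 counts in control and 52 counts in activated replicate 3 against 387 to 708 counts in the other libraries, a log2 difference of -3.87 (SE 0.29, adjusted p = 1.51e-05), with -3.97 in control and -3.74 in activated libraries. *Itgb1bp1* had 0.58 (adjusted p = 3.45e-06), just under the fold limit, and *Itgb3bp* -0.02 (adjusted p = 0.852).

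The bases before the starts of the genes that differed most in each direction, *Itga2b* and *Fndc1*, are shown because their promoters lie next to the most unequal counts. They were taken from RefSeq (GRCm38.p6), in which 28 of the 34 genes had a promoter entry, at chr11:102469884-102470133 and chr17:7827341-7827552, both on the minus strand and both ending where the annotated gene begins. Capitals mark matches on either strand to TATAAA, the TATA box, and to GGGCGG, the GC box, and CCAAT was searched too. No match overlapped another.
*Itga2b*: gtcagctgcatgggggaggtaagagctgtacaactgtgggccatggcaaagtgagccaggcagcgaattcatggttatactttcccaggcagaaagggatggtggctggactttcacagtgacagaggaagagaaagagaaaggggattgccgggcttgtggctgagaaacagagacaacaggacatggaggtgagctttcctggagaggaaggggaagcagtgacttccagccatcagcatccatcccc
*Fndc1*: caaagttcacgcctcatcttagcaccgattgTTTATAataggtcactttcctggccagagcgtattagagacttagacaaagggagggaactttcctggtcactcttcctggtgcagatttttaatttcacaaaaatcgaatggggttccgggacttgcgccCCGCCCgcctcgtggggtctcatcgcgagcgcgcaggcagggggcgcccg
The 250 bases before *Itga2b* held none of the 3, which occur in 12.4% (TATAAA), 32.7% (GGGCGG) and 33.8% (CCAAT) of 32851 windows of that length. The 212 bases before *Fndc1* held 1 TATAAA match and 1 GGGCGG match, found in 9.64% and 27.2% of windows of that length, and no CCAAT, found in 30.1%. These matches are descriptions of the letters and not of sites in use. G and C made up 54.0% of the first window and 54.2% of the second, against medians of 52.4% and 51.9% in all windows.

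*Col4a1* (chromosome 8 from 11198423 to 11312889, minus strand) and *Col4a2* (chromosome 8 from 11312805 to 11449287, plus strand) lie head to head, and their RefSeq promoter windows of 300 bases, chr8:11312777-11313076 and chr8:11312555-11312854, share 78 bases. Both were lower in replicate 3, but by unequal amounts, -0.64 and -2.63. Their annotated intervals overlap, and those of *Itgb1bp1* (with *Cpsf3* and *Asap2*), *Itga4* (with *Cerkl*) and *Itga7* (with *Mettl7b*) also overlap a protein-coding gene. The submitters' processing notes name RSEM but give no settings for dividing reads shared by such genes, so these 5 genes are less certain. Estimated counts were whole in every library for 31 of the 34 genes, and those of *Itgb1bp1* and *Itga4* were not whole in any of the 6.

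Genes that serve the same structures were taken from 7 lists. No gene of any list was called between conditions by edgeR with or without the block. *Bgn*, at low counts, had 1.45, 1.81 and 2.66 CPM in control and 0.621, 0.748 and 0.523 CPM in activated libraries. With the block its log2 fold change was -1.64 (adjusted p = 0.0651). With the block *P4ha1* had -0.29 (adjusted p = 0.0911) and *P4ha2* -0.36 (adjusted p = 0.101), while *Tns1* was higher at 1.23 (adjusted p = 0.298). The counts for replicate 3 that follow are to be read against all tested genes, of which 15.7% were called higher and 15.4% lower. In replicate 3, of 4 tested basement membrane genes other than laminins and collagens, 2 were called higher and none lower. *Smoc1*, a calcium-binding protein of basement membranes, had the most counts, with 346, 348 and 387 CPM in control and 314, 333 and 413 CPM in activated libraries, and was not called. *Agrn* (agrin) had 23.9, 23.7 and 36.9 CPM and 22.9, 23.4 and 45.2 CPM, a log2 difference of 0.79. *Npnt*, a ligand of the α8β1 integrin, had 0.463, 0.932 and 3.11 CPM and 0.677, 0.345 and 3.72 CPM, a log2 difference of 2.48. Of 8 other tested matrix glycoproteins and proteoglycans, *Fbln5* (1.12) and *Vcan* (0.83) were called higher and *Emilin1* (-1.14) lower. Those with the most counts, *Thbs3*, *Spp1* and *Ntn1*, at means of 24.5, 11.7 and 9.49 CPM, were not called. The calls of *Vcan* and *Emilin1* were lost without activated replicate 3 (0.68 and -0.41), that of *Emilin1* also without control replicate 1 (-1.12) or activated replicate 1 or 2 (-1.07 and -1.06).

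Among enzymes and carriers that fold and crosslink collagen, those called were all lower in replicate 3. Some of the others were higher with a fold under 1.5, such as *Colgalt1* (0.50, adjusted p = 5.51e-06) and *Pcolce* (0.46, adjusted p = 0.00109). Of 22 tested genes, 6 were called lower and none higher (15.4% and 15.7% of all tested genes), with a median log2 difference of -0.17, against 0.00 over all tested genes. *P4hb*, the β subunit of prolyl hydroxylase, which also folds proinsulin as a disulfide isomerase, had 1472, 1513 and 852 CPM in control and 1466, 1498 and 807 CPM in activated libraries, a log2 difference of -0.85. *Mia3*, which loads bulky collagens into transport carriers, had 436, 444 and 193 CPM and 399, 412 and 204 CPM, a difference of -1.09. *Loxl2*, a lysyl oxidase that crosslinks collagen, had 192, 197 and 65.1 CPM and 178, 185 and 68.3 CPM, a difference of -1.50. *P4ha1*, *P4ha2* and *Plod2*, which hydroxylate proline and lysine of collagen, had -0.82, -0.62 and -0.68, and the call of *P4ha2* was lost without activated replicate 1 (-0.57) or 3 (-0.47). *Bmp1*, which trims procollagen, had a mean of 344 CPM and was not called.

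Of 33 tested proteins that link integrins to actin inside the cell, most of those called were lower and 2 were higher, with a median of -0.16. Talin (*Tln1*), which switches integrins on, had 115, 110.3 and 46.9 CPM in control and 115, 124 and 51.3 CPM in activated libraries, a log2 difference of -1.25. Also called lower were *Flna* (filamin), with a mean of 202 CPM and a difference of -0.76, *Tns3* (tensin) -1.10, *Parva* (parvin) -0.87, *Actn1* (actinin) -0.74, *Arhgef7* -0.90 and *Rsu1* -0.91. *Actn4*, with the most counts of the list at a mean of 354 CPM, was not called. Called higher were *Arhgef6* (0.95) and *Kank3* (0.78), both at means under 3 CPM, and *Kank3* was no longer called without activated replicate 3 (0.32).

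Among 19 tested laminin and collagen receptors other than integrins, and proteins that sit beside integrins, 3 were called in each direction, with a median of 0.24. Higher were the syndecans *Sdc4* (1.88) and *Sdc1* (1.18) and the laminin receptor *Bcam* (0.66), and lower were the laminin receptor dystroglycan (*Dag1*, -0.65), the collagen receptor *Ddr2* (-1.15) and *Plaur* (-1.15). *Sdc4* had 3.76, 4.54 and 16.6 CPM in control and 4.29, 4.83 and 15.6 CPM in activated libraries, with both replicate 3 libraries above the other 4. *Bsg*, *Rpsa* and *Cd63*, with the most counts at means of 1771, 799 and 703 CPM, were not called. *Itgav*, the partner of *Itgb5* and *Itgb8* that the symbol rule did not take, had 128, 148 and 139 CPM in control and 133, 131 and 139 CPM in activated libraries and a log2 difference of 0.04. In its list of 5 tested genes *Itgal*, a leukocyte chain, was called lower (-1.26), as was *Itfg2* (-1.29), and *Itgae* higher (1.40, lost without control replicate 3 at 0.99). *Itfg1*, with the most counts at a mean of 334 CPM, was not called.

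Of 15 tested matrix proteases and their inhibitors, 6 were called higher in replicate 3, with a median of 0.54. *Mmp17*, a membrane-bound metalloproteinase, had 5.44, 5.83 and 30.1 CPM in control and 7.16, 7.54 and 30.7 CPM in activated libraries, a log2 difference of 2.22. *Plat* had 0.82 and the inhibitor *Timp2* 0.60, the latter lost without activated replicate 2 (0.58) or 3 (0.50). *Mmp9* (0.92), *Mmp28* (1.05) and *Plau* (1.09) were called higher at means under 1 CPM, and these calls were lost without activated replicate 3 (0.62 and 0.91 for *Mmp9* and *Mmp28*) or control replicate 3 (0.67 for *Plau*). *Adam10*, with the most counts at a mean of 135 CPM, and *Mmp24* were not called. Of the called list genes, *Vcan*, *Emilin1*, *Itgae*, *Mmp9*, *Mmp28* and *Plau* were not called by DESeq2.

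Markers of the cells that make most matrix in the pancreas were at or near 0. None of 12 measured fibroblast and stellate cell markers reached 1 CPM, 9 were at or under 3 counts in every library, among them *Acta2*, *Thy1* and *Vim*, and the one with the most counts was *Dcn* at 0.392 CPM. Their sum was 1.05, 0.641 and 1.66 CPM in control and 0.790, 0.863 and 2.32 CPM in activated libraries. Of 11 endothelial markers 2 reached 1 CPM, *Esam*, a junction protein at 12.7 CPM, and *Plvap* at 1.06 CPM, whereas *Cdh5*, *Kdr*, *Flt1* and *Tie1* were at or under 3 counts throughout, and the sum was 13.3, 17.1 and 15.1 CPM and 15.3, 15.7 and 14.8 CPM. Of 8 leukocyte markers none reached 1 CPM (*Cd68* was highest at 0.813 CPM), with sums of 2.26, 1.51 and 1.75 CPM and 2.54, 2.07 and 2.09 CPM.

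Of 5 acinar markers 2 reached 1 CPM, led by *Bhlha15* at 19.8 CPM, and their sum was 28.9, 28.8 and 11.98 CPM in control and 24.7, 22.7 and 10.3 CPM in activated libraries, while *Cela2a*, *Ctrb1* and *Amy2a5* were at the floor. Of 8 duct markers 6 reached 1 CPM, led by *Krt7* at 139 CPM, with sums of 168, 173 and 91.4 CPM and 204, 206 and 121 CPM, and *Sox9* at the floor. Of 9 markers of α, δ and PP cells 6 reached 1 CPM, led by *Ttr*, which β cells also express, and their sum was 1485, 1357 and 760.1 CPM and 1457, 1436 and 928 CPM, with *Hhex* at the floor. Of the 16 β-cell markers 15 reached 1 CPM and *Slc2a2* did not (0.202 CPM). In replicate 3, 7 of the 15 tested β-cell markers were called lower and 1 higher (15.4% and 15.7% of all tested genes). Their sum, mostly *Ins2*, went the other way, at 122533, 112707 and 140634 CPM in control and 118837, 116843 and 129130 CPM in activated libraries. *Abcc8*, a subunit of the potassium channel that sulfonylureas close, had 1654, 1534 and 297 CPM and 1546, 1656 and 439 CPM, and *Ins2* made up 6.37%, 5.65% and 10.2% of control and 6.44%, 6.29% and 8.36% of activated libraries. The acinar, duct, endocrine and β-cell sums and *Ins2* thus also differed in replicate 3. So did the low fibroblast and stellate cell sum, which was highest in replicate 3 of each condition. The part of all these markers in the differences of replicate 3 was not tested.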

How the data were processed

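The 6 libraries had been read on a BGISEQ-500 instrument. Estimated counts of 16640 genes per library, not normalized, were deposited by the authors. They also deposited FPKM values, scaled by gene length and library size. The submitters' processing notes name Bowtie2, RSEM, DESeq2 and GRCm38, without versions. Columns of the authors' own comparison (log2 fold changes, p-values and q-values of DESeq2), their TPM values and group means were not used. One line broken inside a text cell was rejoined.

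The share of whole numbers among these counts was 91.1% to 91.9%, and the others were rounded. Genes were filtered by filterByExpr, normalized by TMM (factors 0.986 to 1.02) and tested over the whole table with edgeR 4.0.16 in R 4.3.3 (quasi-likelihood, robust), with Benjamini-Hochberg adjustment, and called at an adjusted p under 0.05 and a fold change over 1.5. DESeq2 1.42.0 and limma 3.58.1 were alternatives. The tests were tried on simulated counts first. Members were matched by symbol and located through RefSeq (GRCm38.p6). At this depth 1 count was 0.0564 to 0.0583 CPM. Genes were given full statistics between conditions at an unadjusted p under 0.05 with or without the block, and for replicate 3 when called. List genes were named when called or among the 3 with the highest mean CPM of a list, and some of these are not reported here. Genes under 1 CPM, *Bgn*, *Colgalt1*, *Pcolce*, markers and the promoters shown were picked after their values were seen. The members, lists and tests were chosen with earlier results of these data known.

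Replicate numbers paired the samples by a correlation across genes of deviations from condition means. Libraries of the same number gave 0.596, 0.607 and 0.842 for replicates 1, 2 and 3. Crossing 1 and 2 gave 0.652 and 0.691, and crossing with 3 gave -0.744 to -0.715, so that the numbers separate replicate 3 but not 1 from 2. The labels do not say what the numbers share. No 2 libraries of a condition were duplicates by a chi-square test.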

Additional observations from a re-analysis of the deposited data

How the results depend on the processing

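Between conditions, 0 of the 75 genes were called with edgeR, and also 0 with the replicate block, with the block and the DESeq2 Wald test, and leaving out any 1 library (0 to 0). The count was 2 without both replicate 3 libraries, 1 with a term for replicate 3, and, chosen after seeing the data, 1 with the block and both replicate 1 libraries left out and 2 with the block and both replicate 3 libraries left out. The replicate block by itself changed no call. Of the 6 genes with full statistics, 4 to 6 kept direction and side of the threshold in every setting (5 to 6 leaving out 1 library), and the log2 fold change of *Fndc1* turned to -0.13 without control replicate 3 and was 1.18 without control replicate 1. The cause of these moves was not tested. For replicate 3 against 1 and 2, 17 genes were called with edgeR, 50% of the 34 named genes against 31.1% of all tested genes. Shares of all tested genes are given only for this fit. With no limit on the fold 24 genes were called, and 8893 of the 12516 tested genes had an unadjusted p under 0.05. The count was 15 to 18 leaving out 1 library, and 5 with limma on log2(FPKM + 1), which shrinks low genes. Of the 17 genes, 13 to 17 kept direction and call leaving out 1 library and 5 on that scale, and none changed direction in any setting. A minimum of 10 counts in every library left 14 of them called. In 444 of 474 alternative values of the 37 list genes the call held, and in the other 30 it was lost with the direction kept.

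Limits are the 2 libraries of replicate 3, the spread they add to any comparison without a block, and the 2 to 83 counts per library behind *Col4a2*, *Col8a1*, *Col7a1*, *Col1a2* and *Col11a2*. Only RNA was measured, so nothing is known here of protein, secretion or matrix outside the cells.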
